A study of Caenorhabditis elegans with 2 samples.

Results

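BLMP-1 regions on the X chromosome of Caenorhabditis elegans were taken from the authors' pooled list of candidate regions on genome build ce11, as the lines on X selected on a signal value of 30 or more. There were 488 of them among 30000 candidate regions in all, and 1860 lines on autosomes I to V passed the same threshold. The signal value is the authors' own strength score per region, on a scale the files do not state. ChIP-seq against eGFP-tagged BLMP-1 was done on whole embryos, pooled over stages and sexes. The strain, OP109, is mutant for unc-119 (allele ed3, on III) and carries the integrated array wgIs109 with the tagged blmp-1, so every value comes from a transgenic copy. The only group had 2 biological replicates (labelled size range 150 to 350 bp) and there was no other condition. Sequencing depth is unknown, because the lists hold no read counts. Intervals of shares are 95% exact (Clopper-Pearson) intervals that cover counting error only. The p-values run across regions of 1 pooled list, which are not replicates. The sequence words tested were chosen with earlier results of these data known, and the p-values and their adjustment do not cover that choice.

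The worm homologue of vertebrate PRDM1, BLMP-1, binds DNA through zinc fingers and is known for roles in the epidermis, in the timing of development and in the migration of the gonad. The X chromosome is present as a pair in hermaphrodites and singly in males. A dosage compensation complex binds both X chromosomes of hermaphrodite embryos and lowers their transcription, and it is recruited at sites that share a sequence motif enriched on X. X also carries few genes for germline functions and many for neurons, epidermis and muscle. A region of X was described by its summit, the position of highest signal that the authors give for it.

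The longest run of neighbouring regions on X was led by replicate 1. The stretch around lin-15B and lin-15A held 15 of the 488 regions, of which 15 were among the 2348 strongest candidates of replicate 1 and 0 among the 2348 strongest of replicate 2. Of these, 11 had no candidate in replicate 2 at all, 5 lay in exons and 0 had the BLMP-1 core sequence. No test changed its call when that stretch was left out. The threshold of 30 falls in a dense part of the list: the lowest regions inside it were near C18B12.4 (30.1), in lsy-2 (30.05) and in C40H5.2 (30.02), and the highest outside it were at T07F12.2 (29.99), F47B10.5 (29.96) and near H28G03.3 (29.95).

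The sequences below, at the summits of selected regions, were picked because each holds a tested word. Of the 25 strongest regions on X, 10 had neither the BLMP-1 core nor GAGAGA and are not shown. In the first set, shown because these regions have the core word bound by BLMP-1 and PRDM1, capitals mark AAGTGAAA or its reverse complement. Each sequence runs 50 bp to either side of the summit on the plus strand of ce11 (WBcel235), from the RefSeq genome.
lpr-4, chrX:11064965-11065065: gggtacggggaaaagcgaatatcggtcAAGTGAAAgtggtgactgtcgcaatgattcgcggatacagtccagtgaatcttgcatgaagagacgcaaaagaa
ztf-16, chrX:4809375-4809475: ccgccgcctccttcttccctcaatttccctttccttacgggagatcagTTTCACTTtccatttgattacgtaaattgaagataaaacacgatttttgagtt
ZK154.6, chrX:7793742-7793842: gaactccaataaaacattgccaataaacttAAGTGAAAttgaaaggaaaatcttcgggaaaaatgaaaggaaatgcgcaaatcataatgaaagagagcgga
kin-20, chrX:15275412-15275512: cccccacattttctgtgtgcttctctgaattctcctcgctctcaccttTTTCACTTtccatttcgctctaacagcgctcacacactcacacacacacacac
dve-1, chrX:433098-433198: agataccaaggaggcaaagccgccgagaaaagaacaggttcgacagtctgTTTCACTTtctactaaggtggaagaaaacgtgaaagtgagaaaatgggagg
dpy-3, chrX:2145798-2145898: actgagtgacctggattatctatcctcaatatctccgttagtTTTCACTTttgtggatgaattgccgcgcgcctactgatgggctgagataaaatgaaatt
lin-14, chrX:11461719-11461819: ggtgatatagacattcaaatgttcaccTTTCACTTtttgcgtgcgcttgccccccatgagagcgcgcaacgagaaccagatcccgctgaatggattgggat

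The second set holds strong regions with no core but with a GA repeat, and capitals mark GAGAGA or its reverse complement.
nhr-91, chrX:15310330-15310430: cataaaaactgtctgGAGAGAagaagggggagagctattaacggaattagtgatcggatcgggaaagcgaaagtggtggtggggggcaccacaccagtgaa
kin-20, chrX:15276907-15277007: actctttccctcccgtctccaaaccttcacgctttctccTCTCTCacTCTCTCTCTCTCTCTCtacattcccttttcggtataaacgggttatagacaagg
lpr-3, chrX:11057291-11057391: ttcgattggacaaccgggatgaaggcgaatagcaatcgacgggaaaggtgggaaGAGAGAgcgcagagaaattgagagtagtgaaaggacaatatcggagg

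The third set holds all 8 regions of the 488 with the word GCGCAGGG, the core of the motif at recruitment sites of the dosage compensation complex, and capitals mark that word or its reverse complement. They are named by the gene start nearest to the summit or the gene that holds it.
gtr-1, chrX:806648-806748: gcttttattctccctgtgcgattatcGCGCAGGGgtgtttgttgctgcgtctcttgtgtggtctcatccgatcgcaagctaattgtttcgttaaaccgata
F20B6.9, chrX:4209228-4209328: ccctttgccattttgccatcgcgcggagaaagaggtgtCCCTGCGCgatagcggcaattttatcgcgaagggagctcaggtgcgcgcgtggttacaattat
mom-1, chrX:6296477-6296577: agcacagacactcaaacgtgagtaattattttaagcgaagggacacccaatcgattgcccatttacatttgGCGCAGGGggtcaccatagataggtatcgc
R04E5.9, chrX:8811050-8811150: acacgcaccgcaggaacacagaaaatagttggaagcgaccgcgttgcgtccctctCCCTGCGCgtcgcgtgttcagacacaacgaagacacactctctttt
sdn-1, chrX:10596725-10596825: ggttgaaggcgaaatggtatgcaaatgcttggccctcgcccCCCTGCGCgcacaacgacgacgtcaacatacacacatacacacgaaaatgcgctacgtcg
W02H3.3, chrX:11094142-11094242: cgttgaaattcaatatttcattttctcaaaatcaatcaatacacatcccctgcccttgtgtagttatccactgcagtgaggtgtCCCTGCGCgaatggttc
col-185, chrX:13514532-13514632: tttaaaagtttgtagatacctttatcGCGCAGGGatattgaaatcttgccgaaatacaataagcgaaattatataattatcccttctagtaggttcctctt
nspc-17, chrX:14525807-14525907: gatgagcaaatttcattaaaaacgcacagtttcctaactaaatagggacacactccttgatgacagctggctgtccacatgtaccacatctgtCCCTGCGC

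The 4 strongest regions on X lay at nhr-91, lpr-4, ztf-16 and kin-20. The highest, at chrX:15310235-15310540 in an nhr-91 intron (a nuclear hormone receptor gene), had a signal value of 409 in the pooled list, 254 in replicate 1 and 137 in replicate 2. It ranked 14 among the candidates of replicate 1 and 12 among those of replicate 2. The region upstream of lpr-4, which encodes a lipocalin-related protein, stood at 351 in the pooled list, 238 in replicate 1 and 110 in replicate 2 (109.7). Both replicates thus held these regions near the top of their own lists.

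The zinc finger gene ztf-16, of the Hunchback and Ikaros-like family, had its region in an intron, with 299 in the pooled list, 181 in replicate 1 and 121 in replicate 2. The core there was centred 1.5 bp from the summit. At kin-20, which encodes a casein kinase homologous to the fly clock protein Doubletime, the highest of several regions had 254 in the pooled list, 145 in replicate 1 and 114 in replicate 2. The uncharacterized genes C16E9.2 and ZK154.6 followed with 232 and 209 in the pooled list, at summits -1029 and -229 bp from the start, where a minus sign means upstream.

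Of the 25 strongest regions on X, 13 lay in a promoter window (2000 bp before a protein-coding gene's start and 500 bp after it), 7 in introns, 1 in an exon and 4 elsewhere. The one in an exon was at dve-1, a homeobox gene (127 in the pooled list, 76.5 in replicate 1 and 50.5 in replicate 2). Promoter regions included those of ftt-2, a 14-3-3 gene (138), dpy-3, a cuticle collagen gene (127), spc-1, the alpha-spectrin gene (124), and trpp-9, a gene of a vesicle tethering complex (119.5). Those outside genes included one at -5171 bp from the start of nhr-25, the homologue of fly Ftz-F1 (130), one at -5309 bp from that of tps-1, a trehalose synthesis gene (137), and others near ttr-35 (147) and tbc-12 (122). The remaining promoter regions were at T07F12.1 (162), R07E3.6 (135), C26B9.3 (127), M03B6.3 (111) and ZC13.1 (109), and the remaining intron regions at F49E2.5 (132) and F35B3.7 (128). The lowest of the 25 stood at rank 167 in replicate 1 (F49E2.5) and at rank 1016 in replicate 2 (M03B6.3). Among them 12 had the core, 6 had GAGAGA, 3 had both and 10 had neither.

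X carried more regions of 30 or more than any single autosome, and most per gene. The count was 488 on X against 340 on V, the lowest, to 393 on III, the highest. These regions were 8.86% of the candidates on X, where all nuclear candidates gave 7.83% and those on the autosomes 7.60%. Single autosomes ran from 6.66% on V to 8.55% on III, so X was only slightly above III. The rule used strength, so these shares are a description with no test. Per Mb, X had 27.5 regions against 16.2 on V and 28.5 on III. X has fewer protein-coding genes per Mb than the autosomes (154 against 188 to 239), and per 100 protein-coding genes it had 17.9 regions against 6.81 on V and 14.9 on III. In each replicate's own 2348 strongest nuclear candidates, X held 498 (21.2%) in replicate 1 and 478 (20.4%) in replicate 2, above every autosome. Of all nuclear candidates in the pooled list, X held 18.4%, and IV also 18.4%. The pooled list was made from both replicates, so the replicate shares are not independent of it. In strength X lay within the autosomes' range: its median signal value was 38.99, against autosome medians of 37.3 to 40.05.

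Regions were spread along the whole of X, with none of 10 equal bins empty. The counts per bin of the chromosome's length ran from 33 in the first, at the left end, to 61 in the ninth, which holds nhr-91, kin-20 and the lin-15 stretch. Relative to all candidates on X the bins ranged from 7.10% in the fifth to 10.02% in the seventh. Relative to protein-coding gene starts they ranged from 12.9 per 100 genes in the fifth to 24.1 in the tenth, which has the fewest gene starts (199). The highest signal value of a bin was lowest in the second and first (127 each) and highest in the ninth (409), the seventh (351) and the third (299).

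**Figure D1:**
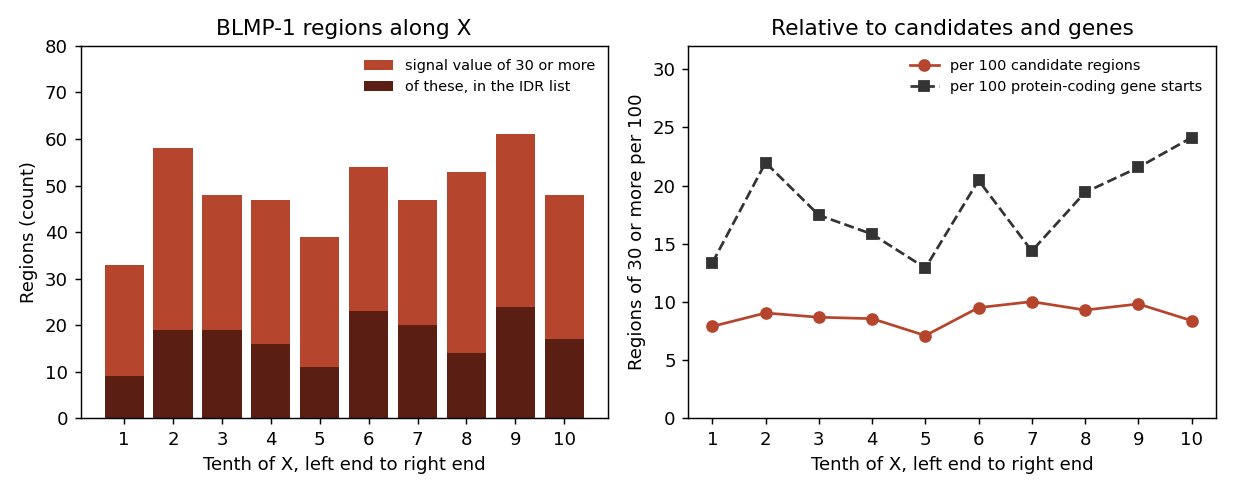
Left: regions on X with a signal value of 30 or more in each of 10 equal bins of the chromosome's length, with those of the authors' IDR list in the dark part of the bar. Right: the same regions per 100 candidate regions and per 100 protein-coding gene starts of that bin. Counts run from 33 to 61, and the share of candidates stays between 7.10% and 10.02%.

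Most regions on X stood alone, and a minority formed groups at single genes. By the distance from each summit to the next, 104 regions (21.3%) had a neighbour within 2000 bp, close to the 21.5% on the autosomes, and they formed 41 groups. The median distance to the nearest other region was 7506 bp on X and 9042 bp on the autosomes. The largest group was the lin-15 run, with 14 regions over 12241 bp and signal values of 32.8 to 75.5. lin-15B and lin-15A, which act in repression of vulval fate, were the genes with the most regions, 8 and 7. Regions were counted for both where their windows overlap.

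The next group, at kin-20, was present in both replicates. Its 5 regions spanned 3710 bp, with 4 in introns and 1 in the promoter window, and had pooled signal values of 254, 152, 126, 62.6 and 51.1. All 5 were among the 2348 strongest of each replicate, with ranks of 37 to 910 in replicate 1 and 22 to 1206 in replicate 2. Of these, 2 had the core, of which the one centred 1.5 bp from the summit is printed above, and another had the GA repeat printed there. At daf-12, the nuclear receptor for dafachronic acids that links hormone state to developmental timing, 4 intron regions had pooled values of 83.4, 43.1, 42.7 and 38.2. The first was high in both replicates, with ranks of 212 in replicate 1 and 575 in replicate 2, and the last was low in both, with ranks of 16104 and 15061. The region of 42.7 was high in replicate 1 alone, where it ranked 935 against 17365 in replicate 2. Of 9 groups with 3 or more regions, the others included tbc-12, nhr-40, vav-1 and peb-1, and a group of 3 at lpr-6 and lpr-5. F09A5.3 was the highest of several genes with 3 regions, led by one of 98.7.

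At nhr-25, which is required for molting and epidermal development, some regions were high in both replicates and others in replicate 1 alone. The upstream region at 13003322 had 130 in the pooled list, 74.7 in replicate 1 and 55.6 in replicate 2. It ranked 128 in replicate 1 and 96 in replicate 2. The intron region 549 bp inside the gene had 71.4 in the pooled list but 63.5 in replicate 1 and 7.34 in replicate 2, where it ranked 15512. A second intron region, 1344 bp inside, had 57.3, 47.7 and 32.9 in the same order.

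Regions on X lay in promoter windows less often than those on autosomes, and so did the weaker candidates. A promoter window held 232 of the 488 summits, 47.5% (43.03 to 52.1), against 1010 of 1860 on the autosomes, 54.3% (52.01 to 56.6), and 42.9% of all nuclear candidates. X against autosomes gave an odds ratio of 0.763 (0.625 to 0.931; Fisher's exact test, two-sided, Benjamini-Hochberg adjusted over 8 shares, p = 0.0215). The share on X was below that of every autosome, of which IV was the lowest (48.2%) and V the highest (60.6%). Among candidates below 30 the promoter share was 36.3% on X and 43.3% on the autosomes, an odds ratio of 0.748 (0.702 to 0.796). The rise from weaker candidates to regions of 30 or more was 1.59-fold in odds on X and 1.56-fold on the autosomes, and the ratio of these was 1.02 (0.827 to 1.26, adjusted p = 0.852, binomial logistic regression over 3 features). The call for the promoter share was lost with the IDR list (0.675; p = 0.0971 after adjustment, exact test), with a threshold of 60 and with either replicate's own list.

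Within promoter windows, summits on X lay farther upstream. Their median position was -514.5 bp from the start, with quartiles of -1122 and -159 bp, against a median of -282 bp and quartiles of -884.5 and -116 bp on the autosomes. This is a description. Exons held 25 regions, 5.12% (3.34 to 7.47), against 4.19% on the autosomes and 9.68% of all candidates, an odds ratio of 1.23 (interval 0.777 to 1.96; exact test, adjusted p = 0.554). Introns held 110 regions, 22.5%, against 22.1% and 28.2% of all candidates, an odds ratio of 1.03 (interval 0.808 to 1.303; exact test, adjusted p = 0.976). Neither difference passed the test. The remaining 24.8% of regions on X were outside genes and promoter windows.

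**Figure D2:**
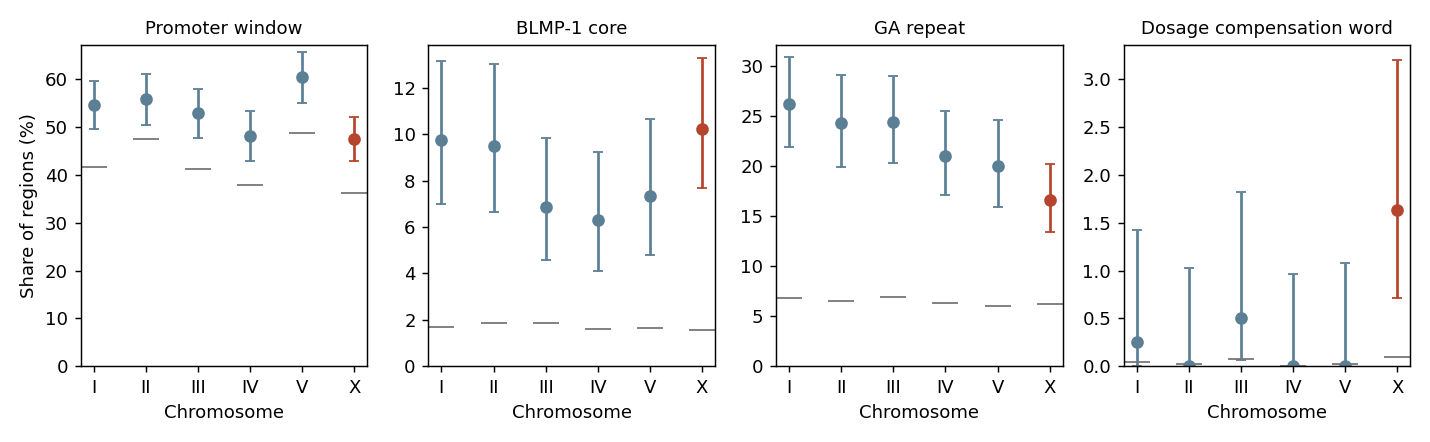
Share of regions with a signal value of 30 or more on each chromosome that lie in a promoter window or have a sequence word within 50 bp of the summit, with 95% exact intervals. X is in red, autosomes are in blue, and grey bars give the share among candidates below 30. X has the lowest promoter share (47.5%), the lowest GA repeat share (16.6%) and the highest share of the dosage compensation word (1.64%). The nearest autosomes are IV for the promoter share (48.2%), V for the GA repeat (20%) and III for the dosage compensation word (0.509%). Their intervals overlap those of X. Its share of the BLMP-1 core (10.2%) is also the highest, but close to that on I (9.77%), with overlapping intervals. For the core, the difference between X and the autosomes together did not pass the test.

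The BLMP-1 core was more frequent at the strongest regions on X than at the weaker ones. AAGTGAAA, searched on both strands and wholly within 50 bp of the summit, was at 50 regions, 10.2% (7.70 to 13.3), against 148 on the autosomes, 7.96% (6.77 to 9.28), and 2.23% of all nuclear candidates. The odds ratio was 1.32 (0.942 to 1.85), which did not pass (exact test, adjusted p = 0.239), and its interval runs from a slightly lower to a clearly higher frequency on X. Compared with weaker candidates on X, of which 1.57% had the core, the odds ratio was 7.14 (4.95 to 10.3), against 4.92 (4.05 to 5.99) on the autosomes. The ratio of these, 1.45 (0.957 to 2.2), did not pass either (adjusted p = 0.12, binomial logistic regression).

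By strength, 13 of the 28 regions on X with a signal value of 100 or more had the core, 46.4% (27.5 to 66.1), against 27.1% (19.3 to 36.1) of 118 on the autosomes. From 60 to 100 the shares were 19.7% on X and 14.3% on the autosomes, from 45 to 60 they were 8.24% and 9.06%, and from 30 to 45 they were 5.26% and 4.38%. Below the threshold, from 20 to 30, they were 1.66% and 2.34%. The median signal value on X was 66.6 for regions with the core, 46.9 for those with GAGAGA and no core, and 37.1 for those with neither word, which were 366 regions (75%). Of the 50 regions with the core, 22 lay in promoter windows and 13 in introns, and the median distance of its centre from the summit was 16.5 bp. Of the 50, 32 were among the 2348 strongest of both replicates. A region with the core and a signal value of 92.9 lay at 11461769, -3791 bp from the start of lin-14 and thus outside its promoter window.

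GA repeats were less frequent at regions on X than at those on the autosomes, a call that did not hold under every setting. GAGAGA was at 81 regions on X, 16.6% (13.4 to 20.2), against 433 on the autosomes, 23.3% (21.4 to 25.3), and 7.67% of all nuclear candidates. This gave an odds ratio of 0.656 (0.505 to 0.852; exact test, adjusted p = 0.00545). Candidates below 30 had it at 6.25% on X and 6.51% on the autosomes (odds ratio 0.958, 0.845 to 1.09). The rise in odds with strength was 2.98-fold on X and 4.36-fold on the autosomes, and their ratio was 0.685 (0.512 to 0.915, adjusted p = 0.0315, binomial logistic regression). X was lower for regions of 30 to 45 (10.5% against 18.7%) and of 60 to 100 (21.1% against 34.9%). It was not lower in those of 45 to 60 (31.8% against 28.9%). At 100 or more the shares were 25% (10.7 to 44.9) on X and 29.7% (21.6 to 38.8) on the autosomes. Over all regions of 30 or more, single autosomes ran from 20% on V (15.9 to 24.7) to 26.2% on I. The call was lost with the IDR list (odds ratio 0.851; exact test, adjusted p = 0.6003) and in the list of replicate 1 (0.873; adjusted p = 0.556). The GATA word TGATAA was at 8.40% of regions on X, 8.55% on the autosomes and 9.87% of all candidates (odds ratio 0.981, 0.685 to 1.405; exact test, adjusted p = 1), a difference that did not pass the test.

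**Figure D3:**
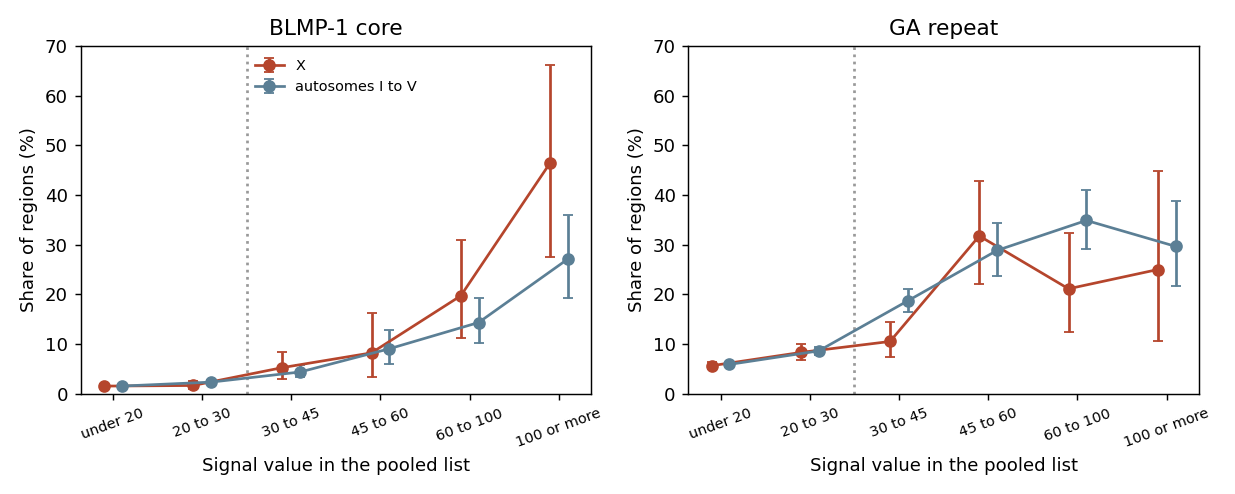
Share of regions with the BLMP-1 core (left) and the GA repeat (right) within 50 bp of the summit, by signal value in the pooled list, on X (red) and on the autosomes (blue), with 95% exact intervals. The dotted line marks the threshold of 30. The core rises with signal on both, to 46.4% on X and 27.1% on the autosomes, with overlapping intervals.

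The word of the dosage compensation motif was rare, and was found more often at regions on X. GCGCAGGG was at 8 of 488 regions on X, 1.64% (0.710 to 3.20), against 3 of 1860 on the autosomes, 0.161% (0.0333 to 0.471), and 0.0767% of all nuclear candidates. This gave an odds ratio of 10.3 (2.73 to 39.03; exact test, adjusted p = 0.0024). The 3 autosomal regions lay on I and III, at 0.257% and 0.509% of their regions. In the whole genome the word occurs 81 times on X and 233 times on the autosomes, 4.57 and 2.82 per Mb. Within 50 bp of a summit of 30 or more lay 8 of the 81 occurrences on X (9.88%) and 3 of the 233 on the autosomes (1.29%). Below the threshold, 5 candidates on X (0.0996%) and 7 on the autosomes (0.031%) had the word, so its share was higher on X there too. Whether the difference between X and autosomes changes with strength was not tested for this word. The odds ratio was 9.74 with G+C content and signal as covariates (binomial logistic regression, adjusted p = 0.00329). It was 3.74 without replicate 2 (exact test, adjusted p = 0.301), where the call was lost. At a threshold of 60 it was 27.3 (interval 1.40 to 533, exact test, adjusted p = 0.0707), and the call was lost there too. No autosomal region had the word at 60, so a small constant was added to each count to give this value.

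Of the 8 regions, printed above, 3 lay in promoter windows, 1 in an intron and 4 outside genes, and 0 had the BLMP-1 core or GAGAGA. The strongest lay at -1793 bp from the start of F20B6.9, with 77.8 in the pooled list, 66.5 in replicate 1 and 15.2 in replicate 2. The next lay in an intron of mom-1, which encodes a Porcupine homologue of Wnt secretion, with ranks of 623 in replicate 1 and 377 in replicate 2. All 8 were among the 2348 strongest of replicate 1, and 5 were among those of replicate 2. In the printed sequences the word stands near the summit for F20B6.9, R04E5.9 and sdn-1, and at the very edge of the window for nspc-17. A match to the word is not shown to be a recruitment site, and no data on the complex were used here.

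Genes on X with a region of 30 or more in the promoter window or within the gene numbered 349, which is 18.7% of the 1868 protein-coding genes on X with any candidate there. On the autosomes the share was 16.0%. Of the 349, 46 held several regions. The lists below are counted against that 18.7%, with no test, since gene length and the number of candidates per gene differ between lists.

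Genes of the apical extracellular matrix and of molting, which cover and shape the outer epithelia of the embryo, had a region at 9 of 17 X-linked members with a candidate (52.9%), against 32.8% of such genes on the autosomes. Their median best signal value was 31.3, against 20.1 over all such genes on X. Among the lipocalin-related genes, lpr-4 (351) and lpr-3 (185) had the highest values. The lpr-5 region of 71.7 also lies 1196 bp from the start of lpr-6, so that both genes are counted for it, and it ranked 250 in replicate 1 but 6267 in replicate 2. The leucine-rich repeat genes sym-1 and let-4 had 76.002 and 34.96, the molting gene mlt-9 54.2, the astacin protease gene nas-13 51.9 with the core, and the cuticlin-like gene cutl-29 31.3.

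Cuticle collagens on X had a region at 6 of 18 genes with a candidate (33.3%, against 10.8% on the autosomes), with a median of 21.5. dpy-3 stood at 127 with the core, with ranks of 96 in replicate 1 and 101 in replicate 2, dpy-8 at 74.9 and dpy-7 at 35.7. The dpy-7 region had no candidate in replicate 2. These 3 genes encode collagens of the furrows between the annuli of the cuticle. The others were col-172 (41.99), col-175 (32.9, with the core) and col-185 (32.7). In replicate 2 the col-172 region ranked 10821 and the col-175 region had no candidate. Hedgehog-related and patched-related genes had a region at 3 of 11 (27.3%, against 30.8% on the autosomes), wrt-9 (85.4), wrt-2 (66.4, with the core) and hog-1 (34.9).

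Nuclear hormone receptor genes on X had a region at 11 of 24 with a candidate (45.8%, against 13.7% on the autosomes), with a median best value of 27.1. After nhr-91 the highest were nhr-3 (88.7), daf-12 (83.4) and nhr-14 (82.2), and all 4 of these ranked 575 or better in both replicates at their highest region. The homeobox list had a region at 2 of 22 (9.09%, against 14.3% on the autosomes), dve-1 (127) and ceh-60 (32.6), and a median of 17.8. The ceh-60 region had no candidate in replicate 2. The eye-field and head gene vab-3 had 17 candidates in all and none above 28.1. Of the GATA factor genes, 0 of 3 had a region (16.7% on the autosomes), and elt-2, the main intestinal regulator, had 13.3 at most.

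Timing genes, which set the order of larval fates, had a region at 5 of 7 as the list was written (71.4%, against 44.4% on the autosomes). That list includes lin-15A, which is not a timing gene, and without it the count was 4 of 6. kin-20 and daf-12 are described above. ain-1, a GW182 protein of the microRNA effector complex, had 49.95 with a GA repeat, and alg-1, its Argonaute, had 3 regions led by one of 44.2 in an exon, with the core. The alg-1 region ranked 592 in replicate 1 and 969 in replicate 2. The gene hbl-1, a Hunchback homologue, had 15.5 at most in its window or gene, and lin-14 had 28.2, but a pair of regions nearest to hbl-1 outside its window had 43.3 and 38.9. The candidate nearest to the start of the let-7 microRNA gene had 15.4, and the closest region of 30 or more lay 36926 bp away.

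Genes that count X chromosomes or act in dosage compensation had a region at 2 of 6 (33.3%, against 17.6% on the autosomes). sex-1, a nuclear receptor that represses xol-1 in proportion to the X count, had 68.1, with ranks of 635 in replicate 1 and 247 in replicate 2. sdc-2, which brings the dosage compensation complex to X, had 38.1 at -554 bp from its start, with no candidate in replicate 1 and rank 504 in replicate 2. The X signal genes ceh-39 and fox-1 had 21.8 and 20.8 at most, and their target xol-1 had 19.9.

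Axon guidance and cell migration genes had a region at 11 of 20 (55%, against 33.3% on the autosomes), with a median best value of 30.98. The highest were sdn-1, the syndecan gene (80.1, with the core and a GA repeat), mom-1 (76.2), unc-115, an actin-binding protein gene (56.3), and mig-15, a kinase gene (50.8). The guidance ligand slt-1 had 50.2 and its receptor sax-3 had 34.9, while unc-6, the netrin gene, had 15.6 at most. In replicate 2 the slt-1 region ranked 8439 and the sax-3 region had no candidate. Of the BMP and body size genes 4 of 6 had a region (66.7%, against 35.3% on the autosomes): the Schnurri homologue sma-9 (53.5), the tetraspanin genes tsp-14 (45.1) and tsp-21 (43.8), and the kinase gene sma-5 (30.4). The glypican gene lon-2 had 13.96 at most. The touch neuron tubulin gene mec-7, in no list, had 101 in the pooled list and 99.8 in replicate 1, but 7.61 in replicate 2, where it ranked 14521.

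**Figure D4:**
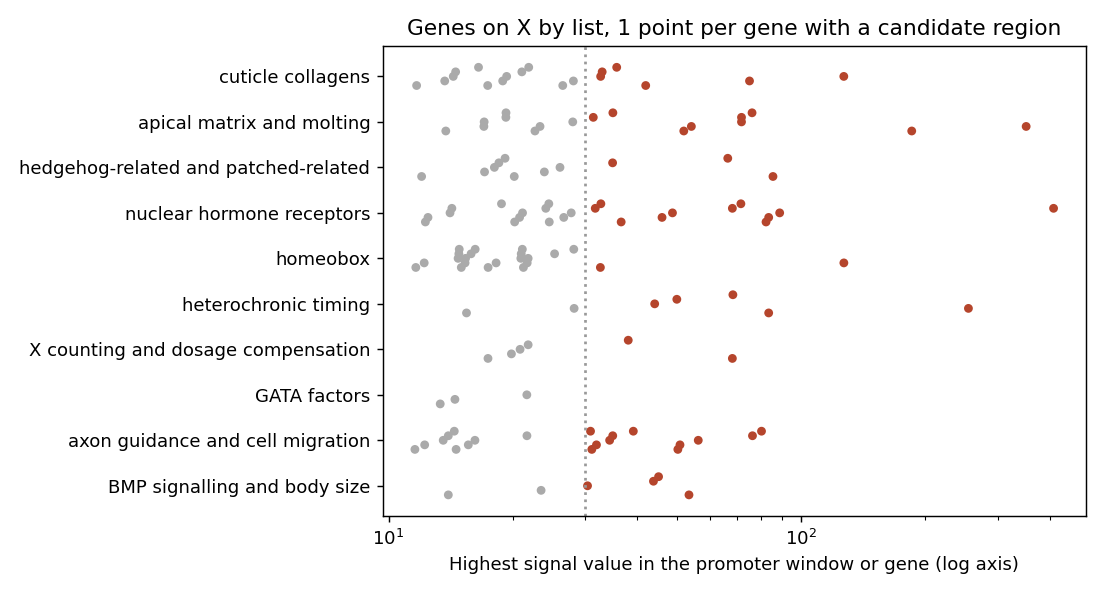
Highest signal value in the pooled list at each X-linked gene with a candidate region in its promoter window or within it, by gene list, on a log axis. Red points are at 30 or more, right of the dotted line, and grey points are below. The highest points are nhr-91 (409), lpr-4 (351) and kin-20 (254).

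The replicates held the strongest X regions in common and differed at many of the others. The pooled list was made from both replicates, and the regions were selected on its signal value. The shares and the correlation below depend on that selection. Of the 488 regions, 175 (35.9%) were among the 2348 strongest candidates of both replicates, against 34.6% on the autosomes, 152 among those of replicate 1 alone, 79 among those of replicate 2 alone and 82 among neither. A candidate of both replicates overlapped 412 regions, 84.4% (80.9 to 87.5), against 82.8% on the autosomes and 26.2% of all candidates. This gave an odds ratio of 1.13 (0.858 to 1.48; exact test, adjusted p = 0.554), which did not pass. No candidate overlapped 61 regions in replicate 2, 16 in replicate 1 and 1 in either. Across the 412, Spearman's rho between the signal values of the replicates was 0.338, as a description over regions of 1 pair of libraries, and 0.347 over the 408 outside the lin-15 stretch.

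Among the 172 regions on X in the authors' IDR list, 132 were among the 2348 strongest of both replicates, 31 of replicate 1 alone and 8 of replicate 2 alone. Those led by replicate 1 included mec-7, sdn-1 (rank 2550 in replicate 2), lin-15B, lin-15A, nhr-25 and lpr-5. Those led by replicate 2 were weaker, and the highest, chosen after its value was seen, lay in sel-7 (56.8, rank 3477 in replicate 1 and 465 in replicate 2).

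**Figure D5:**
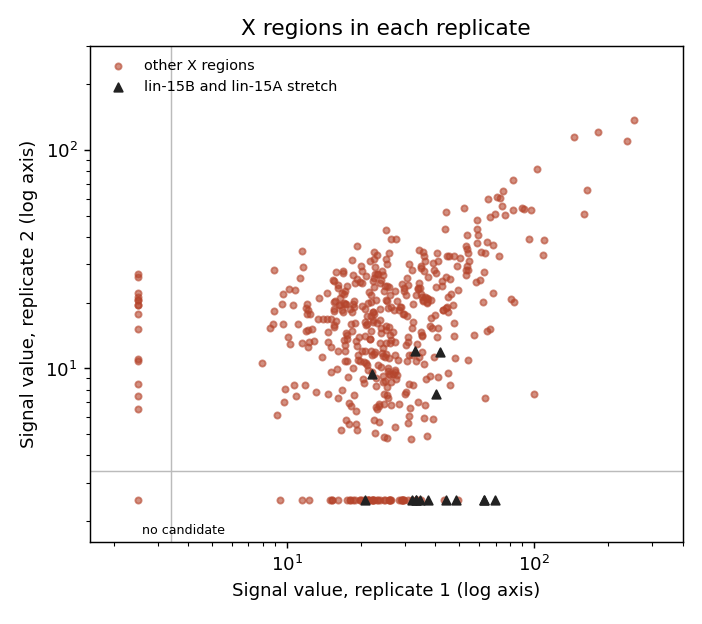
Signal value of each of the 488 regions on X in replicate 1 and in replicate 2, on log axes. Points left of the vertical line or below the horizontal line have no candidate in that replicate and are set at an arbitrary position. Black triangles are the regions of the lin-15B and lin-15A stretch, of which 11 have no candidate in replicate 2.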

How the data were processed

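Peak lists of BLMP-1 ChIP-seq were analysed. The signal value is a score deposited by the authors in the seventh column of each list, and each summit is given there as an offset in bp from the start of its line. The pooled, replicate and IDR lists are on build ce11, per the labels and the file descriptions deposited with the lists. Not given in the sources used here: aligner, peak caller, IDR threshold. Depth is unknown, so its effect on precision cannot be stated.

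Summits were placed on WBcel235 with Ensembl release 115 genes and assigned in the order promoter window, exon, intron, other. Words were searched on both strands in the 50 bp to either side. For X against autosomes, 8 shares went into Fisher's exact test, two-sided, and 3 features into a logistic regression with an interaction term, each family adjusted by Benjamini-Hochberg at 0.05 (Python 3.11.15, scipy 1.17.1, statsmodels 0.14.6). The tests were tested on simulated data, with shares far more common than that of GCGCAGGG, so the test of that word was not covered. The members, gene lists and words were chosen with earlier results of these data known.

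Named genes are those at the 25 strongest lines on X, up to 4 bound members of each of 10 lists, 25 genes whatever their value (elt-7 lies on an autosome and is not analysed here), the 5 genes with most lines, the lines beside the threshold and the largest groups. Further list members and sel-7 were named after their values were seen. Alternatives are given in the closing section.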

Additional observations from a re-analysis of the deposited data

How the results depend on the processing

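No paired analysis was possible because all samples belong to 1 group. Of 108 recomputed values, 81 kept their direction and their side of the threshold. These include results that were never called, and the count of X lines on build ce10, which has no test. For results that were called, 10 alternatives each were run. The call held in 8 for GCGCAGGG, in 6 for the promoter share, in 6 for the GAGAGA share and in 4 for the GAGAGA ratio of odds ratios. The higher share of GCGCAGGG on X held its direction throughout. It lost its call at a threshold of 60, where no autosomal region had the word (odds ratio 27.3, interval 1.40 to 533). It also lost its call without replicate 2 (3.74, against 11.9 without replicate 1). The lower promoter share on X lost its call at a threshold of 60 (0.710), with the IDR list (0.675), and with 1 replicate's own list (0.838 to 0.870). The lower GAGAGA share lost its call at a threshold of 20 (0.839) or 60 (0.574), with the IDR list (0.851) and without replicate 2 (0.873; without replicate 1 it was 0.689). The ratio of odds ratios for GAGAGA lost its call at thresholds of 20 (0.881) and 60 (0.618), with the IDR list (0.942), over lines with a candidate in both replicates (0.803), within 100 bp of the summit (0.751) and without replicate 2 (0.946; without replicate 1 it was 0.695). At 60 and with the IDR list fewer regions were tested. For the others the cause was not tested.

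Values that changed sign were never called. The intron share was 0.980 at a threshold of 20, 0.969 with the window of 1000 and 200 bp, and 0.914 to 1.15 with 1 replicate left out. TGATAA stood at 1.01 at a threshold of 20 and at 1.03 with covariates. The promoter ratio of odds ratios was 0.943 at a threshold of 60, 0.896 with the IDR list, 0.990 over lines with a candidate in both replicates and 0.913 with the smaller window. With 1 replicate left out, the exon share ran from 0.867 to 1.19 and the AAGTGAAA ratio of odds ratios from 0.988 to 1.36. Overlap with a candidate of both replicates could not be recomputed with 1 replicate left out or over lines that all have both. Leaving out the lin-15 stretch, or keeping 1 line per distinct region (486 on X), changed no call. On build ce10 the count of X lines was 477. The lists hold no counts, so no limit from depth can be given.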
